A study of Zea mays with 24 samples.

Results

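The 100 probes described here were those whose log2 ratio of cold over control was above 0 on every array that compared cold and control roots of one maize variety, with the highest medians. Of 43393 probe IDs on the array, 12708 had a value on all 12 of these direct arrays, and 592 of those were above 0 on all 12, which is 4.66%. After the probes in the study's own lists of genes that changed in cold were left out, 577 remained and the 100 with the highest median of the 12 values were taken. The members were thus selected on the direct arrays, and their values there are a description with no test.

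Primary roots of 4 varieties, Picker, PR39B29, Fergus and Codisco, were grown in the dark in climate chambers under a control regime (16 h at 18 °C and a cooler period at 12 °C) or a cold regime (16 h at 12 °C and 8 h at 6 °C). The study ranked Fergus and Codisco as less tolerant to chilling than Picker and PR39B29, and no variety carried a transgene or an added agent. The sample labels give 8 days post-germination and 6 h for the cooler control period, while the methods text differs in both. There were 24 arrays in 3 replicate loops. Every loop had 4 direct arrays, on which cold and control RNA of the same variety competed, and 4 linking arrays, which paired the cold RNA of Fergus, Picker, PR39B29 and Codisco with the control RNA of Picker, PR39B29, Codisco and Fergus, in that order. The loops are labelled as biological replicates, and the values are ratios without a level, so the labelled tissue could not be checked against root markers. In RNA of whole roots, a change in the number of cells of a type and a change of RNA per cell cannot be told apart.

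Maize stems from a warm climate, and its roots meet cold soil before the shoot does. Chilling slows membrane transport, water uptake and growth of the root, and transcript levels change widely within hours to days. On a spotted array with 2 colours, RNA of 2 samples competes for each oligonucleotide probe, and the log2 ratio of the 2 dyes (the M-value) is 1 where one sample gives 2 times the signal of the other. A probe that binds one dye better carries that bias in its ratio, and since every direct array had the same dye orientation, the bias does not cancel in a mean of direct arrays.

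The direction of the ratios is likely and not settled. Ratios were read as the first-named over the second-named RNA of the array title, with the sign of the direct arrays changed to cold over control. In this direction 15 probes of the study's lists were above 0 on all 12 direct arrays, and those lists give all 15 positive mean ratios. The lists come from the same arrays, so this match shows only which sign the study used. Separately, the study reports a strong correlation of its array ratios with quantitative PCR of selected genes. MZ00022876 and MZ00041708, which are among the 15, were in that set. The study describes its differences as treatment minus control. The dye labels put cold RNA in Cy5 on every array, whereas as deposited 39 of the 48 pairings of direct with linking arrays in the same loop correlated negatively (median Spearman coefficient −0.263). With the dye labels taken literally, every direct value below changes sign (a median of −1.65 for the members) and the linking values stay as given. With the ratio taken as second-named over first-named RNA, direct and linking values all change sign.

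Some arrays stood apart. The direct array of PR39B29 of replicate 2 and the linking array of Picker cold and PR39B29 control of replicate 2 were nearly the same as deposited over 22672 IDs and therefore mirror images in the direction used here (Pearson coefficient −0.987). This direct array had Spearman coefficients of 0.334 and 0.817 with the other PR39B29 direct arrays. The linking array had 0.123 and 0.166 with the others of its comparison. Whether either array is the hybridisation that its label names was not tested. Without this direct array the rule chose 85 of the 100 members again. Spearman coefficients among the direct arrays PR39B29 replicates 1 and 2 and Codisco replicate 1 ranged from 0.698 to 0.817, but those of these 3 arrays with the other 9 direct arrays had a median of 0.007. Comparisons of varieties and the linking means are given with and without the arrays concerned.

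No member has a gene product or symbol here. Of the 100 members 79 are named after a TC, a tentative consensus of assembled expressed sequence tags, 15 after a single expressed sequence tag or other accession and 6 after an assembled genomic sequence (AZM4). These shares were close to those of all probes with 12 direct values, at 78.31%, 14.27% and 6.59%. None of the 100 names matched the 49888 genes of the RefSeq table of assembly Zm-B73-REFERENCE-NAM-5.0, so the probes are given by ID and array name. Each member was a single spot, the spots lay in 41 of the 48 blocks of the array with at most 6 in a block, and 3 pairs of members touched each other.

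Over the 12 direct arrays the members' medians ran from 1.28 to 3.08 with a middle value of 1.65 on the log2 scale. The lowest of a member's 12 values ranged from 0.002 to 1.26 and exceeded 0.5 in 45 of the 100, and 9 members lay above 1, a doubling, on every direct array. The highest value ranged from 1.59 to 14.81. The SD over the 12 arrays lay between 0.37 and 3.91 with a median of 0.95. At the limit of the choice, MZ00025975 (TC261907), MZ00017554 (TC252649) and MZ00041811 (TC269869) had medians of 1.29, 1.28 and 1.28 and were kept, whereas MZ00027506 (TC272992), MZ00026450 (TC272656) and MZ00032367 (TC257721) had medians of 1.28, 1.27 and 1.27 and were not. The last member thus hardly differed from the probe after it.

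**Figure D1:**
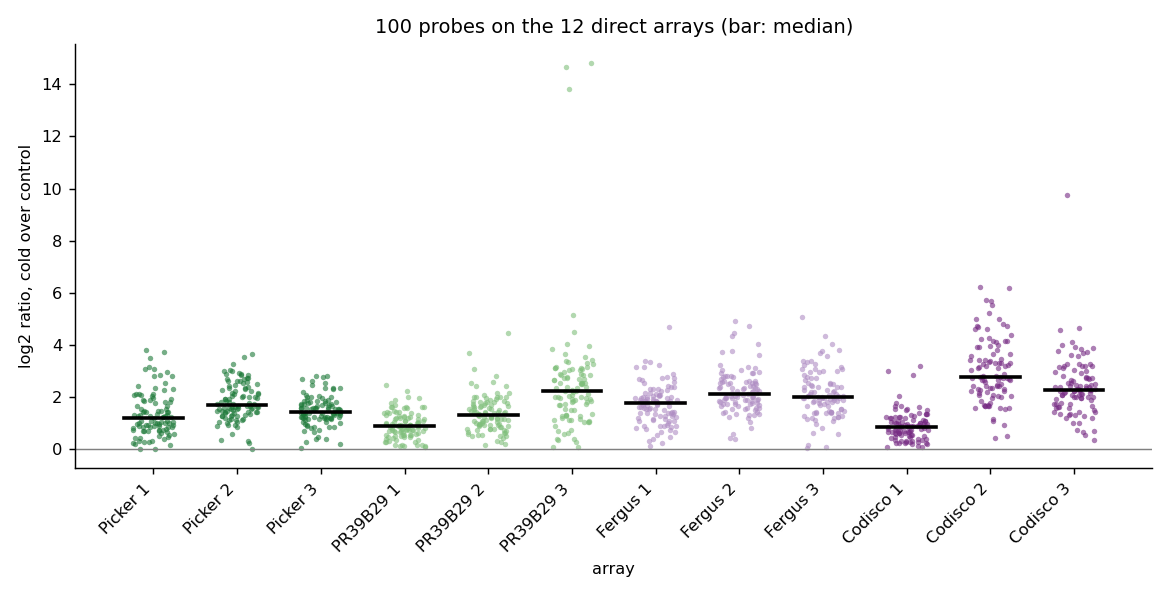
Log2 ratio of cold over control (y axis) of the 100 members on each of the 12 direct arrays (x axis), coloured by variety, with a bar at the median of the members. The medians ran from 0.87 on Codisco replicate 1 to 2.79 on Codisco replicate 2, and all values lie above 0 because the members were chosen so.

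The highest median belonged to MZ00052341 (BF728370). Its ratios were 1.24, 2.34 and 3.68 in Codisco, 3.37, 4.05 and 3.38 in Fergus, 1.87, 1.76 and 13.84 in PR39B29 and 2.79, 3.53 and 2.79 in Picker (replicates 1, 2 and 3). Apart from 13.84, its values stayed between 1.24 and 4.05, and the ranges of Picker and Codisco overlapped.

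MZ00031174 (TC254337) was second, with 2.86, 2.65 and 2.50 in Codisco, 3.14, 3.04 and 0.82 in Fergus, 2.23, 4.46 and 3.84 in PR39B29 and 0.86, 2.10 and 2.81 in Picker. It was closest among replicates in Codisco (2.67 ± 0.18, SD, n = 3) and widest in Fergus (2.34 ± 1.31, SD, n = 3).

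MZ00036947 (BM268398) had 1.01, 5.0 and 3.12 in Codisco, 2.77, 3.78 and 3.57 in Fergus, 1.58, 1.83 and 0.37 in PR39B29 and 2.43, 3.65 and 2.31 in Picker. All 3 PR39B29 values lay below all 3 values of Picker and of Fergus.

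MZ00022717 (TC278961) had 0.89, 5.52 and 4.65 in Codisco, 2.58, 4.71 and 3.79 in Fergus, 1.24, 0.94 and 2.56 in PR39B29 and 2.82, 2.52 and 1.75 in Picker. Its Codisco values held both the lowest and the highest of the 12. MZ00035025 (AI065825) also spread widely in Codisco, with 1.03, 5.21 and 3.79, while Fergus was narrow at 2.54, 2.53 and 2.98.

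MZ00028851 (TC274764) and MZ00028432 (TC272699) were the most even of the 12 members with the highest medians. MZ00028851 had a median of 2.53 and stayed between 1.24 and 3.48, and MZ00028432 had a median of 2.50 and stayed between 1.21 and 3.23. Both were thus above 1 on every direct array.

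Among the other 5 of these 12, MZ00030274 (AZM4_92208), MZ00016981 (TC251484), MZ00025426 (TC249160) and MZ00014438 (TC249692) had medians of 2.49, 2.36, 2.25 and 2.25 and lowest values between 0.40 and 0.73. MZ00005142 (BM378666) had a median of 2.39, with 0.02 on Picker replicate 1 and 14.67 on PR39B29 replicate 3. Its place among the members therefore rested on a value hardly above 0.

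**Figure D2:**
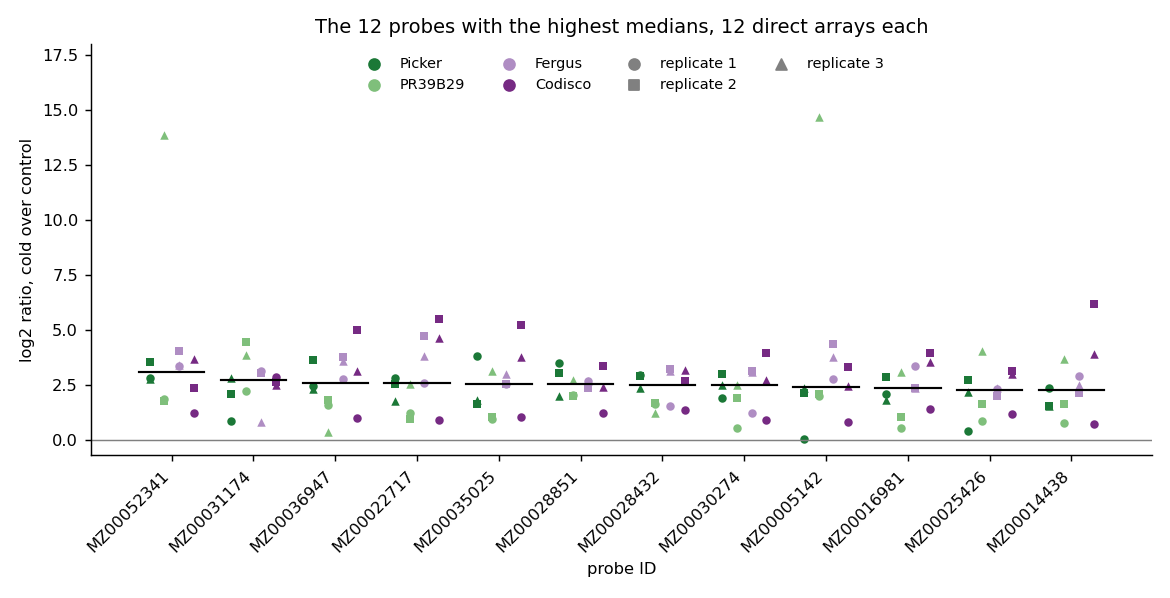
Log2 ratio of cold over control (y axis) on each of the 12 direct arrays for the 12 members with the highest medians (x axis, probe IDs), with colour for variety, symbol for replicate and a bar at the median of each probe. PR39B29 replicate 3 gave 13.84 for MZ00052341 and 14.67 for MZ00005142, far above the medians of 3.08 and 2.39.

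Very large ratios were confined to a few members and arrays. Of all direct values of the members, 13 in 12 members exceeded 5, of which 7 lay on Codisco replicate 2 and 4 on PR39B29 replicate 3. Besides MZ00052341 and MZ00005142, MZ00056623 (AZM4_135862) reached 14.81 on PR39B29 replicate 3 and MZ00032257 (TC256359) reached 9.77 on Codisco replicate 3, which makes 4 members with a value above 8. The authors' background correction replaced intensities of 0 or below by a small positive value, and its part in these ratios was not tested.

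The members with the smallest SD over the direct arrays were MZ00043443 (TC270627, 0.37), MZ00018559 (TC263565, 0.45), MZ00043444 (TC270628, 0.47), MZ00012815 (TC275675, 0.47) and MZ00016149 (TC261944, 0.51). MZ00043444 ran from 1.26 to 2.79 and had the highest lowest value of the 100. Codisco gave 1.26, 2.31 and 2.41, Fergus 2.05, 2.79 and 1.98, Picker 1.46, 1.99 and 1.39 and PR39B29 1.69, 1.39 and 1.72, so that Codisco overlapped the other 3 varieties and Fergus lay above PR39B29.

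MZ00043443 and MZ00043444 have neighbouring IDs and TC numbers, and such neighbours may be assembled from related sequences, so that they are not separate observations. Over the 12 direct arrays their values correlated with a Spearman coefficient of 0.86. The coefficients were 0.825 for MZ00041761 and MZ00041762 (TC269455 and TC269456), 0.769 for MZ00024064 and MZ00055745 (TC274405 and TC274406) and 0.734 for MZ00013745 and MZ00041205 (TC258192 and TC258193). MZ00028645 and MZ00028646 have neighbouring IDs but distant TC numbers (TC263316 and TC263526), and their coefficient was −0.21. These are descriptions over 12 arrays that each pair of probes shares.

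Among the probes left out because the study's lists hold them, 15 were also above 0 on all 12 direct arrays, and all 15 had medians at or above that of the last member. According to the annotation in those lists, MZ00042906 (r40g3 protein of rice, median 3.16), MZ00013532 (phosphoenolpyruvate carboxykinase, an enzyme of gluconeogenesis, 2.90), MZ00016581 (ZmNIP2-1, a channel protein of the aquaporin family, 2.36) and MZ00015899 (cinnamoyl CoA reductase, an enzyme of lignin synthesis, 1.65) were among them. The members' medians thus overlapped the range of these annotated probes.

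The size of the members' ratios on the arrays of the 4 varieties is described here with no test. Medians of the members' variety means were 2.07 in Codisco, 1.93 in Fergus, 1.46 in PR39B29 and 1.48 in Picker (n = 3 arrays each), while all probes with 12 values had medians between −0.01 and 0.03. Codisco had the highest mean in 51 members, Fergus in 32, PR39B29 in 11 and Picker in 6. With every array brought to one spread, the numbers were 29, 36, 26 and 9. Without the 3 direct arrays that stood apart, which leaves 2 arrays of Codisco and 1 of PR39B29, the medians were 2.66 in Codisco and 2.23 in PR39B29, and the highest mean was that of Codisco in 59 members, PR39B29 in 30, Fergus in 10 and Picker in 1. With one spread and without those 3 arrays, the medians were 2.12 in PR39B29, 1.98 in Fergus, 1.96 in Codisco and 1.61 in Picker. The highest mean was then that of PR39B29 in 44 members, Codisco in 29, Fergus in 21 and Picker in 6. The places of PR39B29 and Codisco therefore turned on these arrays and on the spread. Picker had the fewest members in each of these counts.

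The mean of the more tolerant pair lay below that of the less tolerant pair in 81 of the 100 members, with a median difference of −0.53, where 51.8% of all probes with 12 values lay below. It was −0.24 with arrays on one spread, where 70 members and 52.4% of all probes lay below. Without the 3 arrays that stood apart it was −0.50, with 75 members and 48.8% of all probes below. With both changes it was −0.18, with 62 members and 48.8% of all probes below. The members are all above 0 by the choice, so a wider spread of an array raises them together. All probes centre near 0, and their share below does not carry such an effect. The members also share the same arrays, so these counts are not separate observations of tolerance. A value above 1 on all 3 arrays was held by 75 members in Fergus, 49 in Picker, 33 in PR39B29 and 33 in Codisco, and without those 3 arrays by 89 on the single array left of PR39B29 and by 92 on the 2 left of Codisco.

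Since all 12 values of a member had to be above 0, how far its varieties can differ is limited by the choice, and the members' differences between varieties are given with no test. Over all 12708 probes with 12 values, limma's moderated F statistic found none that differed between varieties at an adjusted p below 0.05 (0%), and 1165 at an unadjusted p below 0.05. Among the members that statistic, used here only to order them, was largest for MZ00016337 (TC272277), MZ00055652 (TC267832) and MZ00057039 (AZM4_58793).

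MZ00016337 was low in PR39B29 at 0.11, 0.54 and 0.10, against 2.12, 1.67 and 1.57 in Picker, 1.38, 1.80 and 2.94 in Fergus and 0.87, 1.58 and 2.00 in Codisco. MZ00055652 was likewise low in PR39B29, with 0.16, 0.50 and 0.07, and between 1.02 and 3.05 elsewhere. MZ00057039 was low in Picker instead, with 0.01, 0.37 and 0.26. For each of these 3 members the variety with the low values did not overlap the others, in members singled out for such a difference.

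The F statistic was smallest among the members for MZ00037072 (BM378706), MZ00004817 (TC276144) and MZ00042354 (TC198220). MZ00037072 had 0.31, 2.09 and 1.74 in Codisco, 1.66, 0.41 and 2.73 in Fergus, 0.39, 0.95 and 2.65 in PR39B29 and 0.24, 2.51 and 1.38 in Picker. Its replicates varied more than its variety means, which ran from 1.33 to 1.60.

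Replicates of one variety also differed in the size of the members' ratios. On Codisco replicate 1 the members' median was 0.87 and on Codisco replicate 2 it was 2.79, and replicate 1 was the lowest of the 3 Codisco values in 92 of the 100 members. In PR39B29 replicate 3 was the highest in 79. The range over 3 replicates had a median of 0.95 in Picker and 0.97 in Fergus, and of 1.52 in PR39B29 and 2.34 in Codisco. The 3 direct arrays that stood apart gave the members a median of 0.97, against 1.91 on the other 9, and 59 of the 100 members would be chosen from those 9 arrays alone.

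To see values that had no part in a choice, the same rule was applied to 8 direct arrays of 2 loops and the 4 direct arrays of the third loop were read. Of the 100 probes chosen without replicate 1, 60 were members, and 62 of the 85 with 4 values were above 0 on all 4 arrays of replicate 1, against 18.2% of all probes with 12 values. Without replicate 2 it was 81 of 87, against 15.1%. Without replicate 3 it was 60 of 74, against 21.5%. The medians on the arrays of the loop not used were 1.05, 2.00 and 1.91, and those of all probes were between −0.02 and 0.04. PR39B29 replicate 3 had the fewest values above 0 among the arrays not used, with 65 of 78.

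The linking arrays were not part of the rule, but by the loop design they carried the RNA extracts of the direct arrays, so that they are other hybridisations and not other plants. An exception is the array of Picker cold and PR39B29 control of replicate 2, which mirrors a direct array that the rule used. The rule thus fixed all 100 members below 0 on it. The values over 12 linking arrays that follow include this array, and without it the members' median was 1.31. In the mean over the 4 linking arrays of a loop each cold and each control RNA enters once, and differences between varieties cancel. The linking arrays shared one dye orientation among themselves, so a dye bias of a probe does not cancel in that mean. By the dye labels it is the orientation of the direct arrays. Under the title order used here it is the opposite one, if every ratio is of the same dye over the other. Of the members 81 had a value on all 12 linking arrays. All 81 had a mean above 0, with values from 0.36 to 1.81 and a median of 1.11, against a median of 0.02 over the 10815 probes with 12 linking values. Of these 81 members 58 were at or below 0 on at most 2 of the 12 arrays, as were 7.53% of the 10815 probes.

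**Figure D3:**
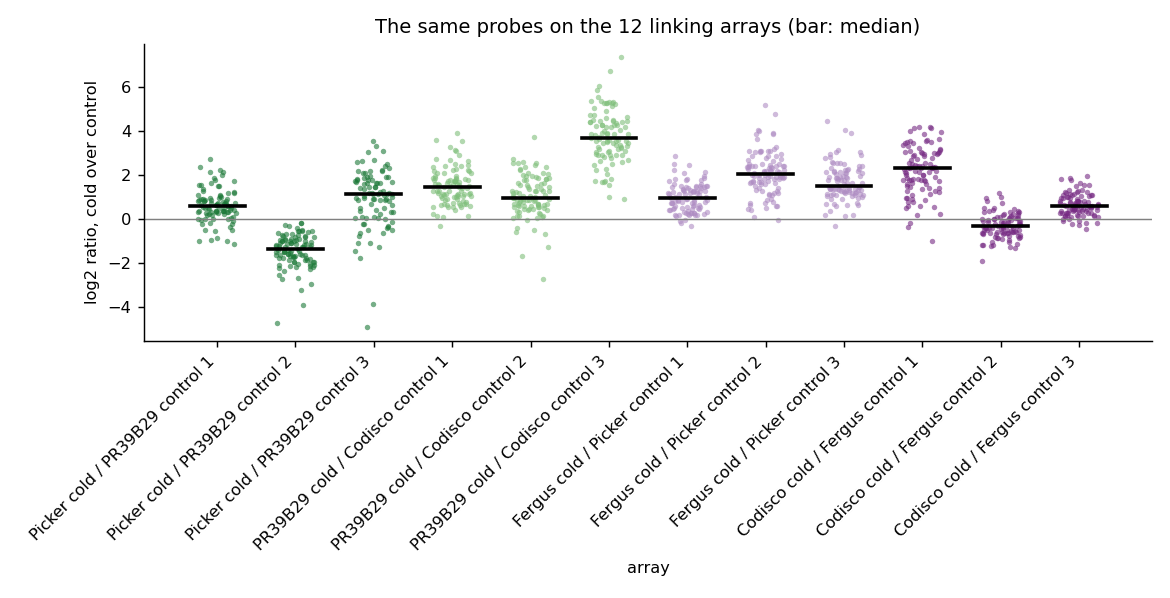
Log2 ratio of cold RNA of one variety over control RNA of another (y axis) of the members on each of the 12 linking arrays (x axis), coloured by the variety of the cold RNA, with a bar at the median. All 100 members lay below 0 on the Picker cold and PR39B29 control array of replicate 2, and 27 of 100 lay above 0 on the Codisco cold and Fergus control array of replicate 2.

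The members' medians on single linking arrays ranged from −1.40 to 3.70. On 10 of the 12 arrays between 80.4% and 100% of the members measured were above 0, where all probes had between 49.8% and 51.1%. On the array nearly identical to a direct array 0 of 100 were above 0, a sign which the choice of the members fixes there. On Codisco cold over Fergus control of replicate 2, 27 of 100 were above 0 with a median of −0.34.

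In the limma fit of the 12 linking arrays, 1 probe of 10815 (0.00925%) had a mean above 0 at an adjusted p below 0.05, and it was no member (MZ00031569, log2 ratio 3.18 ± 0.38, SE, adjusted p 0.0215, named after its value was seen). It is in the study's lists and had 11 direct values, 10 of them above 0, so the rule could not take it. None of the 81 members passed, with limma adjusted p-values from 0.0855 to 0.473, and 74 were above 0 at an unadjusted p below 0.05, as were 13.0% of the 10815 probes. With limma's array weights 72 of the 81 passed, where 1147 of all 10815 probes were called higher and 767 lower. Without the nearly identical array, 35 of the 81 members passed, all above 0, where 1.76% of 11163 probes were called higher, and the members' median was 1.31. The smallest limma adjusted p was then 0.0407, close to the threshold, both among the members and over all probes. These fits took linking arrays of the same loop as independent. Deviations of such arrays correlated with a median coefficient of 0.162, against −0.124 for arrays of different loops and comparisons. Standard errors and calls can therefore look firmer than 3 loops allow.

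Among the 81 members with 12 linking values, the largest linking means were those of MZ00022717 (1.81 ± 0.43, SE), MZ00036947 (1.73 ± 0.53), MZ00019025 (TC198698, 1.71 ± 0.36), MZ00025960 (TC272022, 1.69 ± 0.47) and MZ00015790 (TC272282, 1.67 ± 0.39). MZ00022717, the fourth by its direct median, was above 0 on 10 of 12 linking arrays, where it had 1.22, 3.92 and 1.91 on Fergus cold, 0.58, −0.99 and 0.86 on Picker cold, 1.02, 2.38 and 5.30 on PR39B29 cold and 3.98, −0.29 and 1.79 on Codisco cold. Its limma adjusted p was 0.0873, and 0.0495 without the nearly identical array. MZ00019025 was above 0 on 11 of 12 linking arrays, with −1.52 on the nearly identical one and between 0.09 and 3.88 on the others.

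Among the same 81, the smallest linking means were those of MZ00041995 (TC249771, 0.36 ± 0.28, SE), MZ00034998 (AI065635, 0.37 ± 0.21), MZ00014889 (TC250054, 0.54 ± 0.23), MZ00018559 (0.59 ± 0.19) and MZ00057039 (0.63 ± 0.29). MZ00041995 was above 0 on 7 of 12 linking arrays, although its direct values ran from 0.40 to 3.30. Those of MZ00018559 were small on both kinds of array, with direct values between 0.36 and 1.59.

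Over whole loops the direct and linking means can be set side by side, since both average cold minus control over the 4 varieties. The members' median was 1.12 on the direct and 1.32 on the linking arrays of replicate 1, and 2.03 and 1.70 in replicate 3. In these 2 loops every member with all 4 linking values, 89 and 88 of them, had a linking mean above 0. In replicate 2 the direct median was 2.06 and the linking median 0.38, with 83 of 98 above 0. Without the nearly identical array the linking median of replicate 2 was 0.97 and 96 of 98 were above 0, but in a mean of 3 linking arrays differences between varieties no longer cancel. The 2 kinds of array thus gave sizes close to each other in replicates 1 and 3 and not in replicate 2.

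**Figure D4:**
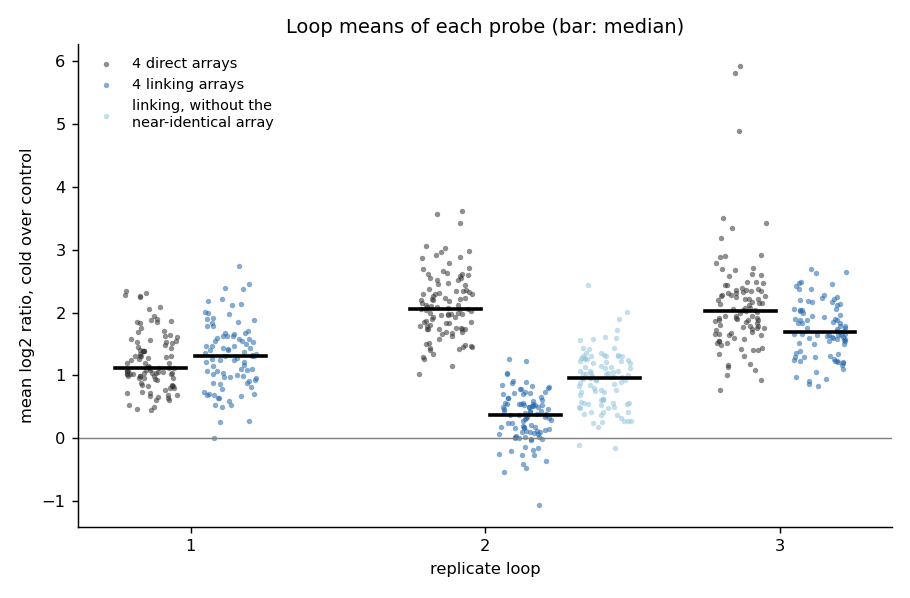
Mean log2 ratio of cold over control of each member (y axis) over the 4 direct arrays (grey) and the 4 linking arrays (blue) of each replicate loop (x axis), and in replicate 2 also without the nearly identical array (light blue), with a bar at the median. Direct and linking medians were 1.12 and 1.32 in replicate 1, 2.06 and 0.38 in replicate 2, and 2.03 and 1.70 in replicate 3.

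Single linking comparisons hold the difference between 2 varieties as well as the cold response. The median of the members' means was 2.09 for PR39B29 cold over Codisco control, 1.49 for Fergus cold over Picker control, 0.86 for Codisco cold over Fergus control and 0.15 for Picker cold over PR39B29 control, the last of which was 0.90 without the nearly identical array. In the same limma fit 10 of 81 members were called higher in PR39B29 cold over Codisco control, where 1.79% of all probes were, and 0 of 81 in each of the other 3 comparisons. With array weights the members called were 63 for Fergus cold, 23 for Codisco cold, 0 for Picker cold and 0 for PR39B29 cold. Of all 10815 probes, 1419, 1000, 85 and 3 were called higher in these comparisons with weights. At an unadjusted p below 0.05 without weights, 70 members were higher for PR39B29 cold, where 16.2% of all probes were, and 46 for Fergus cold, where 6.35% were. There were 6 for Codisco cold and 1 for Picker cold, where 2.66% and 4.53% of all probes were higher.

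The 10 members called, which were named after their values were seen, were MZ00014581, MZ00056178, MZ00043645, MZ00013664, MZ00018616, MZ00014139, MZ00017458, MZ00018929, MZ00027042 and MZ00043212, with means between 2.14 and 3.09 and limma adjusted p-values between 0.0332 and 0.0479. MZ00014581 (TC249202) had 3.92, 1.56 and 3.80 on the 3 arrays (3.09 ± 0.60, SE). The count was 0 without replicate 1, 11 without replicate 2 and 0 without replicate 3, and 0 with arrays on one spread or with array weights, so that no member was called without replicate 1 or without replicate 3. On PR39B29 cold over Codisco control of replicate 3 the members' median was 3.70, the highest of the 24 arrays.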

How the data were processed

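Total RNA of primary roots was labelled with Cy3 and Cy5 and hybridised to spotted oligonucleotide arrays by a service provider. Before deposit the authors used the minimum method for background, applied print-tip loess and scaling between arrays, excluded bad spots (CARMAweb, limma; versions not given in the sources used here) and deposited the log2 ratio (M-value) of each spot. Spot names and positions, of which the unit is a label, came from a second deposited table, in which 96 columns of slide values were not used. Spots with an ID starting MZ were averaged by ID. Depth has no counterpart on arrays, and the number of arrays limits the precision. Linear models were fitted with limma 3.58.1 in R 4.3.3 with moderated statistics and Benjamini-Hochberg adjustment over all probes tested (threshold 0.05), after a check on simulated data. P-values measure the spread between these arrays only. Named members were the 12 highest medians, the limits of the choice, the 5 highest and lowest linking means, the 5 smallest SDs, the 3 largest and smallest F statistics and neighbouring IDs. Members and lists were chosen with earlier results of these data known. The alternatives tried were a replicate block, a variance filter, missing values, one spread, centring, array weights, the direction and left-out arrays or replicates.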

Additional observations from a re-analysis of the deposited data

How the results depend on the processing

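The linking means of the 81 members kept their direction under every alternative run, except where the ratios were read as second-named over first-named RNA, which gave a median of −1.11, and the direct median became −1.65 under that reading or with the dye labels taken literally. The number of members called and the number of all probes called were 0 and 1 in the fit reported. They became 0 and 0 with the replicate block, 0 and 6 with the 40% of probes of largest variance, 3 and 61 with arrays on one spread, 72 and 1914 with array weights, which ranged from 0.354 to 9.87 and were highest for Codisco cold over Fergus control of replicate 3, and 35 and 264 without the nearly identical array. Leaving out 1 replicate each gave 0 to 3 members, 0 to 134 probes and a median of 0.82 to 1.49. Chosen after the data were seen, fits without the 2 linking arrays with most members below 0 gave 50 and 539, and fits without the 3 linking arrays that follow the direct arrays standing apart gave 51 and 1253. The cause was not tested. Members and all probes called for PR39B29 cold over Codisco control went from 10 and 300 to 24 and 793 with the replicate block, 0 and 2 with arrays on one spread, 14 and 140 with the variance filter, 0 and 4 with array weights, 17 and 343 without the nearly identical array and 0 to 11 members without 1 replicate. With array weights, members and all probes called went from 0 and 7 to 63 and 2564 for Fergus cold. For Codisco cold they went from 0 and 0 to 23 and 2277. Replicate numbers were not taken to pair the arrays in the fit reported. Of the pairs of one number, 11 of 18 direct and 9 of 18 linking pairs had deviations that correlated above 0.1. The median coefficients of pairs of one number were 0.317 and 0.162, against −0.207 and −0.124 for other numbers. No probe passed the variety test with the replicate block, the variance filter, one spread, centring, missing values, or without PR39B29 replicate 2 or 1 replicate. Without the 3 direct arrays that stand apart 7 did, and with array weights, whose estimation did not converge, 9563. The alternatives with weights, centring, missing values or without the 3 arrays in the variety test were added after the data were seen. Of the members 52 were chosen again when ranked by the lowest value, 53 to 76 without 1 replicate and 59 without the 3 direct arrays that stand apart, and 85 to 97 under the other rules. Single linking means of 38 named members passed the threshold in 96 of 493 values under the alternatives. The deposited ratios carry no measure of signal over background, so ratios of dim spots were not separated from others.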
